A study of Mus musculus with 10 samples.

Results

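The GDNF and neurotrophin receptors and ligands were taken as 9 listed genes, the receptors *Ret*, *Gfra1*, *Gfra2*, *Gfra3*, *Ntrk2* and *Ntrk3* and the ligands *Gdnf*, *Ntf3* and *Bdnf*. A gene was represented by the probe set annotated to it alone with the highest mean over all 10 arrays. Of the 9 genes, 8 had such a probe set, among 19937 genes on the array, and each of the 8 had exactly 1. *Ntf3* had none in the annotation used and is not analysed here, so that the ligands were *Gdnf* and *Bdnf*.

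GDNF family ligands bind a GFRα co-receptor tethered to the outer cell membrane, and the pair engages the receptor tyrosine kinase RET, which then autophosphorylates and recruits adaptors to the MAP kinase and PI3 kinase pathways. GDNF binds chiefly GFRα1, neurturin GFRα2 and artemin GFRα3. The neurotrophins bind Trk receptor tyrosine kinases, BDNF and neurotrophin-4 through TrkB, the product of *Ntrk2*, and neurotrophin-3 chiefly through TrkC, the product of *Ntrk3*. In the mouse, loss of *Ret*, *Gfra1* or *Gdnf* leaves most of the bowel without enteric ganglia and impairs the kidney, and neurturin acting on GFRα2 is needed by many parasympathetic neurons of the pelvic ganglia.

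Neural crest progenitors (NCPs) were sorted by flow cytometry as H2BVenus+ cells from the lower urogenital tract of embryonic day 13 *Sox10*-H2BVenus fetuses, all transgenic for C3Fe.Tg(Sox10-HIST2H2BE/Venus)ASout, and were hybridized to 3 Affymetrix mouse Gene 1.0 ST arrays. Total embryo RNA was hybridized to 7 arrays and served as the control. The transgene drives a histone-bound fluorophore from *Sox10*, early neurons keep that label for a while, tissue of several fetuses was pooled for a sample, and the sources used here give neither the stage nor the genotype of the total embryos. The NCP arrays carry 3 sample codes, while the total embryo arrays were taken to carry 2, on 3 and 4 arrays. In 1 title of the 4 the code lacks a zero that the others hold, and was taken as the same code. The *p*-values thus measure the spread between arrays, part of which may be technical. All 3 NCP titles carry one date, also found on 1 total embryo title (replicate 1).

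The values were log2 values from robust Multi-Array Average (RMA) normalization, so that a difference of 1 is a doubling. Values of the 28192 probe sets tested spread less on the NCP arrays, with a standard deviation (SD) of 0.97 to 1.13, than on the total embryo arrays, with 1.78 to 1.91. Pairs of NCP arrays correlated at *r* of 0.58 to 0.68, against 0.95 to 0.99 for pairs of total embryo arrays. Housekeeping genes exceeded the genes of 1178 olfactory and vomeronasal receptors, mostly silent outside the nose, by a difference in medians of 3.07, 0.71 and 4.21 on NCP arrays 1, 2 and 3, against 6.69 to 7.06 in total embryo. NCP array 2 thus stood apart, with the smallest range. Dim probe sets were higher on NCP arrays and bright ones lower, the median log2 fold change of NCPs over total embryo being 2.08 in the dimmest of 10 equal groups of probe sets by total embryo level and −2.16 in the brightest. Each change was therefore also set against the 500 genes nearest in total embryo level, and refitted after level adjustment, in which each array loses the trend that its difference from the total embryo mean shows with level. *Sox10* itself, the gene behind the sort, averaged 7.56 ± 0.40 in NCPs and 6.56 ± 0.09 in total embryo (SD, n = 3 and 7), for a log2 fold change of 1.0 as deposited and 1.22 after level adjustment. Of 13 measured neural crest and glial markers, 3 were higher and 6 lower by the test, where 39.6% of the array was called higher and 27.5% lower, and 2 were higher and 2 lower after level adjustment, against 10.3% and 8.29% of the array.

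Promoter sequences were taken from RefSeq (GRCm38.p6, 250 bases before to 50 after a transcription start) to show the letters around the starts of these genes. The windows shown are those of the 2 ligands that held a cyclic AMP response element core, and the single windows of *Gfra1* and *Ntrk2*. The letters searched on both strands were ACGTCA, the core of the cyclic AMP response element, ACAAAG and ACAATG, bound by SOX factors, and CAGCTG, an E-box. Matches are in capitals. The first of 2 *Gdnf* windows, at chr15:7809798-7810097 on the plus strand, held ACGTCA at position 200 counted from its first base:
Gdnf window 1: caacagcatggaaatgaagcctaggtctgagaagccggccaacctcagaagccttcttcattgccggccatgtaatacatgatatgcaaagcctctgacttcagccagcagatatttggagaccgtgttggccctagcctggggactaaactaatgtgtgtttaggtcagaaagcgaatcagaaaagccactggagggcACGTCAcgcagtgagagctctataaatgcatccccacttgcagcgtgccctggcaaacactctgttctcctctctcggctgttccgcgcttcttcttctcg
The third of 7 *Bdnf* windows, at chr2:109692186-109692485 on the plus strand, held ACGTCA at position 215 and ACAAAG at position 80:
Bdnf window 3: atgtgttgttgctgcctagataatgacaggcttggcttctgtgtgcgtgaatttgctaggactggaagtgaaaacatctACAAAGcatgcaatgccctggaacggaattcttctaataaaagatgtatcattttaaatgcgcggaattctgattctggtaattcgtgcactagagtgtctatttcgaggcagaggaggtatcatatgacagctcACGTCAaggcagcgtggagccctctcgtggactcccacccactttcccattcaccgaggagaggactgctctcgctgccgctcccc
The *Gfra1* window, at chr19:58455349-58455648 on the minus strand, held CAGCTG at position 161:
Gfra1 window 1: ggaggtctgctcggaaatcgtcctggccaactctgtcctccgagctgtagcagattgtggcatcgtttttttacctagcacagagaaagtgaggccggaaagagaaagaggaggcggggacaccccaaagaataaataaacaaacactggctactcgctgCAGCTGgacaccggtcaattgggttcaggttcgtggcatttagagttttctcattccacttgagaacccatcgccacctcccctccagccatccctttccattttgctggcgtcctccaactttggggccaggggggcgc
The *Ntrk2* window, at chr13:58806319-58806618 on the plus strand, held CATTGT, the reverse complement of ACAATG, at position 9:
Ntrk2 window 1: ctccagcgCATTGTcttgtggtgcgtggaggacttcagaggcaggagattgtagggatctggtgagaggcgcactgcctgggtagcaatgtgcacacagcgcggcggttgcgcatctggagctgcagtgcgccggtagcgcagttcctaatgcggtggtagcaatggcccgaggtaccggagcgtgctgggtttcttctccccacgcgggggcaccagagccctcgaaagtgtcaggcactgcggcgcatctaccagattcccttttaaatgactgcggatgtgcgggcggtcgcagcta
Of the *Bdnf* windows not shown, the fourth held CATTGT at position 282 and the fifth CAGCTG at position 80, and the second *Gdnf* window held none of the letters searched. ACGTCA was present in 1 of the 2 *Gdnf* windows and 1 of the 7 *Bdnf* windows, and in 7.51% of 32851 promoters of the same length. A SOX sequence was present in 28.6% and the E-box in 16.3% of those promoters. These matches describe the letters only, and binding was not measured here. For *Ret*, *Gfra2* and *Ntrk3* no promoter was used here.

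Among the receptors, 1 rose and 1 fell. *Gfra3*, the artemin co-receptor of sympathetic and nociceptive neurons, was higher in NCPs, *Gfra2*, the neurturin co-receptor, was lower, and *Ret*, *Gfra1*, *Ntrk2* and *Ntrk3* did not pass the test. Both ligands were higher, *Gdnf* 1.82-fold and *Bdnf* 1.92-fold. With limma and a Benjamini-Hochberg adjusted *p* under 0.05 over all probe sets, 39.6% of the array was called higher in NCPs and 27.5% lower, so that 3 members higher and 1 lower of 8 is to be read against calls in 67.1% of the array. In 4 of 8 members every NCP value exceeded every total embryo value, which held for 31.8% of all probe sets. No member had all NCP arrays below, against 21.5% of all probe sets. Set against total embryo array 1 alone, which shares the NCP title date, the log2 fold changes were 0.79 for *Gdnf*, 0.89 for *Bdnf*, 1.20 for *Gfra3* and −0.15 for *Gfra2*, and no member passed (limma adjusted *p* = 0.412, 0.347, 0.260 and 0.895). Set against the 3 total embryo arrays of the NCP title series they were 0.90, 0.92, 1.07 and −0.52, of which *Gfra2* did not pass (limma adjusted *p* = 0.169). In these bulk samples, fewer cells that express a gene and less RNA per cell cannot be told apart.

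**Figure D1:**
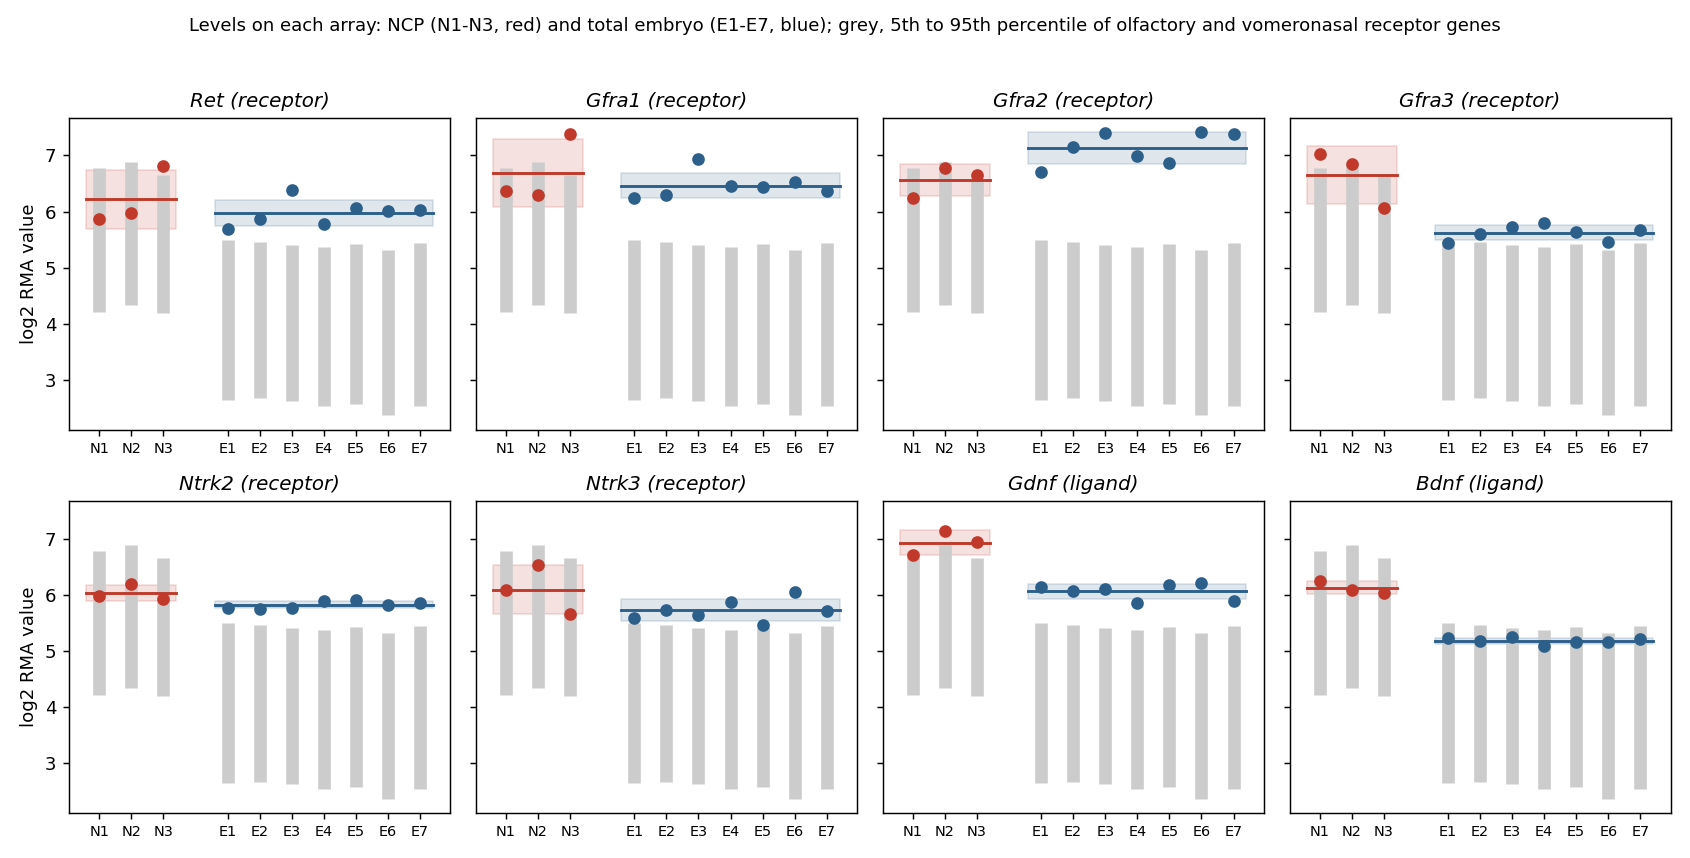
Log2 RMA value (vertical axis) of each of the 8 measured genes on every array, with NCP arrays 1 to 3 in red and total embryo arrays 1 to 7 in blue, horizontal lines at group means, shaded bands of 1 SD, and grey bars from the 5th to the 95th percentile of olfactory and vomeronasal receptor genes on that array. The 3 NCP values lie above all 7 total embryo values for Gfra3, Ntrk2, Gdnf and Bdnf, while the grey bars are higher and shorter on the NCP arrays.

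*Ret*, the signalling kinase of all GDNF family receptors, had log2 values of 5.86, 5.97 and 6.82 on NCP arrays 1, 2 and 3, against a lowest, median and highest value of 5.70, 6.01 and 6.39 in total embryo. NCP array 3 was above every total embryo array, while NCP arrays 1 and 2 lay within their range. The means were 6.22 ± 0.52 in NCPs and 5.98 ± 0.23 in total embryo (SD, n = 3 and 7), with a log2 fold change of 0.24 (standard error (SE) 0.22, 95% interval −0.24 to 0.72, limma adjusted *p* = 0.352). Without NCP array 3 the log2 fold change was −0.059. The change was at percentile 54.0 of the 500 genes of similar total embryo level, whose median was 0.21, and −0.0073 after level adjustment (adjusted *p* = 0.986).

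*Gfra1*, the co-receptor that presents GDNF to RET, had values of 6.37, 6.30 and 7.38 in NCPs, against 6.24, 6.44 and 6.94 (lowest, median, highest) in total embryo. Again only NCP array 3 was above the total embryo range. The means were 6.68 ± 0.60 in NCPs and 6.47 ± 0.23 in total embryo, with a log2 fold change of 0.22 (SE 0.24, interval −0.30 to 0.73, limma adjusted *p* = 0.432) that became −0.13 without NCP array 3. *Gfra1* stood at percentile 81.8 of genes of similar level, whose median change was −0.16. After level adjustment the log2 fold change was 0.35 (interval −0.15 to 0.85, adjusted *p* = 0.315), with differences from the total embryo mean of 0.01, 0.02 and 1.02 on NCP arrays 1, 2 and 3. *Ret* and *Gfra1* were each other's closest gene of the array by correlation over the 10 arrays (*r* = 0.95), a description in which NCP array 3 and total embryo array 3 were high for both genes. The adjusted *Ret* differences on NCP arrays 1, 2 and 3 were −0.38, −0.24 and 0.59, so that array 3 was also the highest for *Ret* on that scale.

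*Gfra2* had values of 6.24, 6.78 and 6.66 in NCPs, against 6.71, 7.14 and 7.41 in total embryo. NCP arrays 1 and 3 were below the total embryo range, and NCP array 2 was inside it. The means were 6.56 ± 0.28 in NCPs and 7.13 ± 0.28 in total embryo, for a log2 fold change of −0.57 (SE 0.20, interval −1.01 to −0.13, limma adjusted *p* = 0.0252), or 1.48-fold lower in NCPs. Genes of similar level changed by more, with a median of −0.79, and 67.6% of them were called lower. *Gfra2* stood at percentile 67.6 among them, and its log2 fold change after level adjustment was 0.16 (interval −0.28 to 0.59, adjusted *p* = 0.627). Without NCP array 1 the decrease was −0.41 and no longer passed (adjusted *p* = 0.113), and with sample code as a random block the adjusted *p* was 0.215.

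*Gfra3* had values of 7.03, 6.85 and 6.06 in NCPs, against 5.45, 5.63 and 5.81 in total embryo. All 3 NCP arrays were above all 7 total embryo arrays, and NCP array 3 was the nearest to them. The means were 6.65 ± 0.52 in NCPs and 5.62 ± 0.13 in total embryo, for a log2 fold change of 1.02 (SE 0.20, interval 0.58 to 1.46, limma adjusted *p* = 6.82e-04), or 2.03-fold. Among genes of similar level, whose median was 0.49 and of which 49.0% were called higher, *Gfra3* stood at percentile 91.2. Level adjustment left a log2 fold change of 0.53 (interval 0.10 to 0.96) that did not pass (adjusted *p* = 0.0806), with differences of 0.91 and 0.72 on NCP arrays 1 and 2 and −0.04 on array 3. With arrays averaged per sample code the adjusted *p* of the deposited values was 0.0723, while with sample code as a random block it was 0.0124. NCP array 3 was thus the lowest NCP array for *Gfra3* and the highest for *Ret* and *Gfra1*.

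*Ntrk2*, the receptor for BDNF, had values of 5.98, 6.20 and 5.93 in NCPs, against 5.76, 5.83 and 5.90 in total embryo. All NCP arrays were above all total embryo arrays, by a margin of a few hundredths at the nearest pair. The means were 6.04 ± 0.14 in NCPs and 5.83 ± 0.06 in total embryo, for a log2 fold change of 0.21 (SE 0.14, interval −0.09 to 0.52) that did not pass limma's test (adjusted *p* = 0.197). Genes of similar level changed more, with a median of 0.31, which placed *Ntrk2* at percentile 37.4. After level adjustment its log2 fold change was −0.14 (interval −0.44 to 0.16, adjusted *p* = 0.509).

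*Ntrk3*, the receptor for neurotrophin-3, had values of 6.09, 6.53 and 5.66 in NCPs, against 5.46, 5.70 and 6.06 in total embryo. NCP arrays 1 and 2 were above the total embryo range, array 1 only just, and array 3 was inside it. The means were 6.09 ± 0.43 in NCPs and 5.72 ± 0.19 in total embryo, for a log2 fold change of 0.37 (SE 0.20, interval −0.06 to 0.80, limma adjusted *p* = 0.119). Without NCP array 3 it was 0.59 and passed (adjusted *p* = 0.017), and without NCP array 2 it was 0.15 and did not (adjusted *p* = 0.492). *Ntrk3* stood at percentile 47.2 of genes of similar level, with a median of 0.40, and its log2 fold change after level adjustment was −0.054 (interval −0.49 to 0.38, adjusted *p* = 0.879).

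*Gdnf*, the ligand of RET and GFRα1, had values of 6.70, 7.14 and 6.95 in NCPs, against 5.86, 6.11 and 6.21 in total embryo. The groups did not overlap, and NCP array 2 was the highest. The means were 6.93 ± 0.22 in NCPs and 6.06 ± 0.14 in total embryo, for a log2 fold change of 0.87 (SE 0.16, interval 0.52 to 1.21, limma adjusted *p* = 3.66e-04). Genes of similar level had a median change of 0.18, 20.4% of them were called higher, and *Gdnf* stood at percentile 94.8 among them. *Gdnf* was the only measured member to pass after level adjustment, with a log2 fold change of 0.68 (interval 0.33 to 1.04, adjusted *p* = 0.0128) on a scale on which 10.3% of the array was called higher and 8.29% lower, 18.6% in all. Its adjusted differences were 0.44, 0.92 and 0.69 on NCP arrays 1, 2 and 3, against −0.23 to 0.17 on the total embryo arrays, and without NCP array 2 the log2 fold change was 0.57 (adjusted *p* = 0.0274). With arrays averaged per sample code the deposited difference of 0.87 did not pass (adjusted *p* = 0.0609), and with sample code as a random block it did (adjusted *p* = 0.0148).

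*Bdnf*, the ligand of TrkB, had values of 6.26, 6.09 and 6.04 in NCPs, against 5.09, 5.18 and 5.25 in total embryo. The groups did not overlap, and both had a narrow spread. The means were 6.13 ± 0.11 in NCPs and 5.19 ± 0.05 in total embryo, for a log2 fold change of 0.94 (SE 0.14, interval 0.64 to 1.24, limma adjusted *p* = 5.98e-05). Genes of similar level changed by nearly as much, with a median of 0.81, and 71.4% of them were called higher. *Bdnf* stood at percentile 64.8 among them, and its log2 fold change was 0.15 after level adjustment (interval −0.14 to 0.45, adjusted *p* = 0.464). The genes closest to *Bdnf* over the 10 arrays were *Olfr164* (*r* = 0.998), an olfactory receptor, *Nlrp14* (*r* = 0.998) and *BC049762* (*r* = 0.996), each higher in NCPs.

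**Figure D2:**
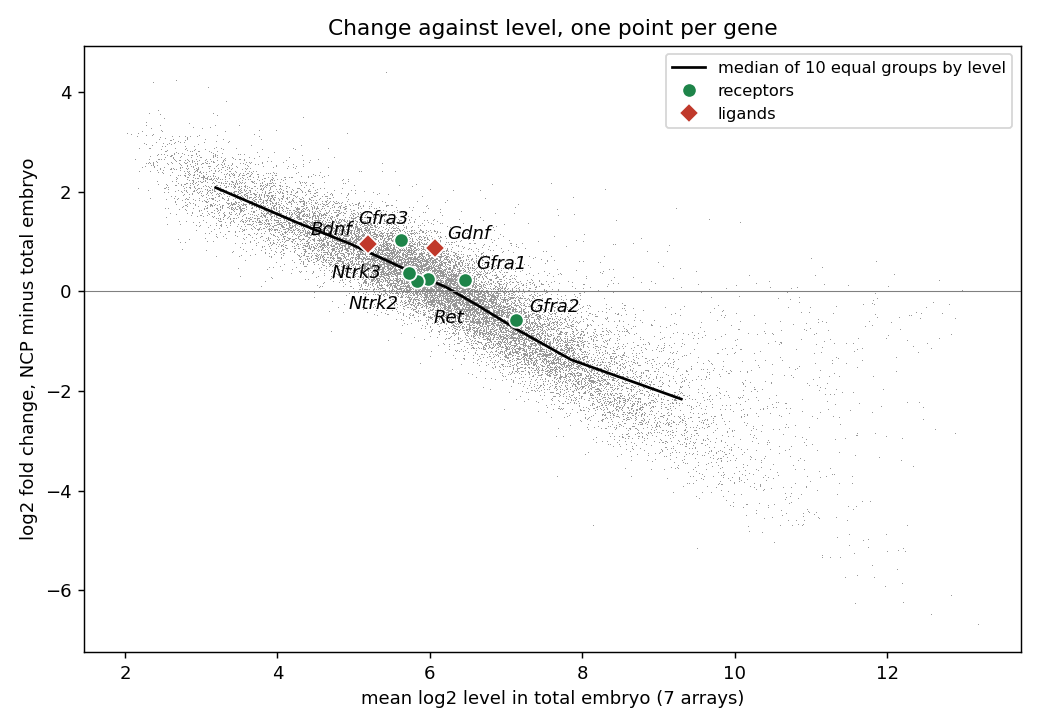
Log2 fold change of NCPs over total embryo (vertical axis) against the mean log2 level in total embryo over 7 arrays (horizontal axis), with 1 grey point per gene, a line through the medians of 10 equal groups of probe sets by level, receptors in green and ligands in red. Gdnf and Gfra3 lie furthest above the line, by 0.69 and 0.54 over the median of their 500 genes of similar level, while Bdnf, Ret, Ntrk2 and Ntrk3 lie within 0.14 of theirs.

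Set side by side, the 6 receptors had a median log2 fold change of 0.23 and the 2 ligands of 0.90, against 0.08 over all genes. The mean of the 6 receptors lay between 6.26 and 6.44 on the NCP arrays and between 5.91 and 6.31 on the total embryo arrays. The mean of the 2 ligands lay between 6.48 and 6.62 on the NCP arrays and between 5.48 and 5.69 on the total embryo arrays. The receptor means of the groups overlapped, and the ligand means did not. For comparison, 31.8% of single probe sets had all NCP arrays above all total embryo arrays. After level adjustment the medians were 0.08 for receptors, 0.42 for ligands and −0.03 for all genes, with no receptor and 1 ligand past the test. The difference between receptors and ligands was not tested, since the ligands were 2 genes that split on adjustment, *Gdnf* at 0.68 and *Bdnf* at 0.15. Above the median of genes of similar level were 6 of the 8 members, with *Ntrk2* and *Ntrk3* below it.

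**Figure D3:**
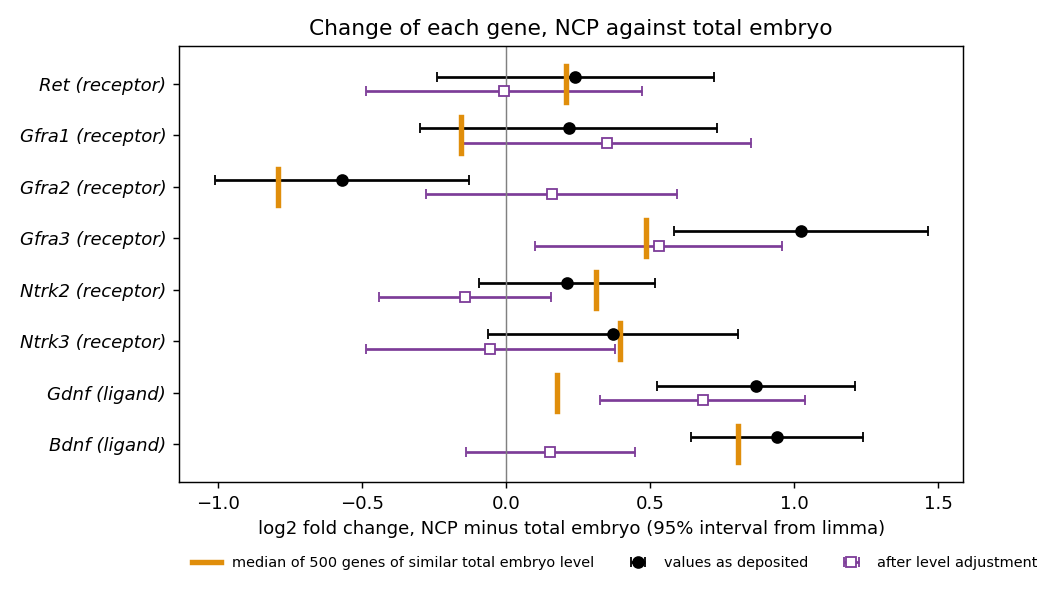
Log2 fold change of NCPs over total embryo (horizontal axis) for each gene, with 95% limma intervals, for deposited values (black circles) and after level adjustment (open squares), beside the median change of 500 genes of similar total embryo level (orange bars). The deposited intervals of Gfra2, Gfra3, Gdnf and Bdnf exclude 0, and after adjustment those of Gdnf and Gfra3 do, of which Gdnf alone passed the adjusted p.

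Read against the olfactory and vomeronasal receptor genes of the same array, most members stood closer to that floor on NCP arrays. In total embryo, 7 of 8 members, all but *Bdnf*, had a mean above the 95th percentile of these genes, against 4 of 8 in NCPs, namely *Gfra1*, *Gfra2*, *Gfra3* and *Gdnf*. On single NCP arrays *Gfra1* was at percentile 79.9 to 99.2, *Gfra2* at 85.3 to 95.1 and *Gfra3* at 80.2 to 97.2. None of these was above the 95th percentile on every NCP array. *Gdnf* was at percentile 94.4 to 97.5 of the floor genes on NCP arrays and 97.8 to 99.1 on total embryo arrays. *Bdnf* was at percentile 70.0 to 85.8 on NCP arrays and 90.8 to 94.0 on total embryo arrays, below the 95th percentile on every array. *Ntrk2* was at percentile 75.0 to 76.9 and *Ntrk3* at 61.1 to 86.9 on NCP arrays, while *Ret* spanned 65.5 to 96.8. With every array centred on these floor genes, all 8 members were lower in NCPs, *Gdnf* by a log2 fold change of −0.83, *Bdnf* of −0.75 and *Gfra3* of −0.67. That centring shifted every log2 fold change by −1.69 and gave 1339 probe sets higher and 21976 lower, against 11158 higher and 7747 lower as deposited. The direction of *Gdnf*, *Bdnf* and *Gfra3* therefore turned with the genes taken as unchanged.

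Over the 10 arrays, *Bdnf* varied most closely with *Gdnf* (*r* = 0.92) and *Gfra3* (*r* = 0.90) among the members, while *Gfra2* ran against *Bdnf* (*r* = −0.73). The single genes of the array closest to the other members were *Amer3* for *Gdnf* (*r* = 0.985), *Igfbpl1* for *Gfra3* (*r* = 0.989), *Wfdc6a* for *Ntrk2* (*r* = 0.983), *Kcna6* for *Ntrk3* (*r* = 0.938) and *Senp3* for *Gfra2* (*r* = 0.956). Next closest to *Gfra3* was *Vmn1r228* (*r* = 0.988), a vomeronasal receptor gene. These values are descriptions over arrays that share the difference between the groups and the smaller range of the NCP arrays.

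**Figure D4:**
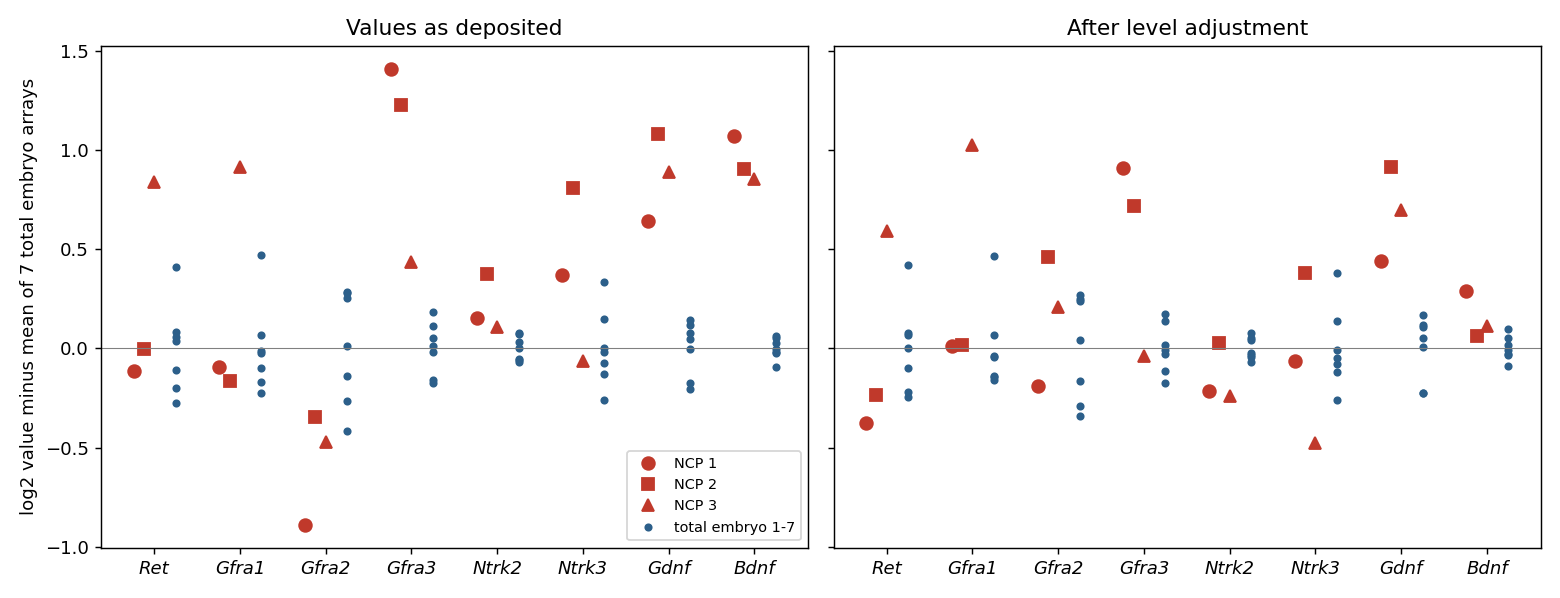
Difference of each array from the 7-array total embryo mean in log2 units (vertical axis) for each gene, for deposited values (left) and after level adjustment (right), with NCP arrays 1, 2 and 3 as red circles, squares and triangles and total embryo arrays as blue dots. NCP array 3 is the highest NCP array for Ret and Gfra1 and the lowest for Gfra3, and all 3 NCP arrays stay above total embryo for Gdnf after adjustment.

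Of 4 other ligands of the families measured, 2 were higher and 2 did not pass, where 39.6% of the array was called higher. *Ntf5*, which encodes neurotrophin-4, the other ligand of TrkB, averaged 7.0 ± 0.31 in NCPs and 6.01 ± 0.18 in total embryo (SD, n = 3 and 7), for a log2 fold change of 0.99 (SE 0.18, limma adjusted *p* = 3.14e-04). It kept 0.77 after level adjustment and passed (adjusted *p* = 0.010), at percentile 96.4 of genes of similar level. *Artn*, which encodes artemin, the ligand of GFRα3, averaged 6.06 ± 0.87 in NCPs and 5.12 ± 0.23 in total embryo, for a log2 fold change of 0.94 (adjusted *p* = 0.0125) that was 0.11 after adjustment (adjusted *p* = 0.834). It was 0.56 and did not pass without NCP array 1 (adjusted *p* = 0.0871) and 1.42 without NCP array 2, and the call was lost in 11 of 27 alternatives and its direction turned in 1. *Artn* was at percentile 83.2 of the olfactory and vomeronasal receptor genes in NCPs and 91.6 in total embryo. *Nrtn*, which encodes neurturin, and *Pspn*, which encodes persephin, did not pass, with log2 fold changes of −0.10 and 0.10.

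Of 7 other receptors measured, 2 were higher, 2 lower and 3 did not pass, against 39.6% higher and 27.5% lower on the array. *Gfral*, the receptor for GDF15, changed by 1.76 and *Gfra4*, the persephin co-receptor, by 0.57, both with all NCP arrays above total embryo, and by 0.12 and −0.13 after level adjustment, where neither passed. Both were below the 95th percentile of the olfactory and vomeronasal receptor genes in either group, *Gfral* at percentile 60.3 in NCPs and 52.4 in total embryo and *Gfra4* at 75.0 in NCPs and 94.3 in total embryo. *Ncam1*, an alternative signalling partner of GFRα1, averaged 6.14 ± 0.15 in NCPs and 7.83 ± 0.35 in total embryo, for a log2 fold change of −1.69 that was −0.35 after adjustment and did not pass. *Sort1*, which encodes the pro-neurotrophin receptor sortilin, averaged 5.67 ± 0.31 in NCPs and 7.23 ± 0.28 in total embryo, for a log2 fold change of −1.56 that still passed at −0.74 after adjustment (adjusted *p* = 0.023). *Ngfr*, the p75 receptor shared by neurotrophins and a marker of neural crest, had a log2 fold change of 0.13 and did not pass (adjusted *p* = 0.550).

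Of 26 adaptors and effectors of RET and Trk receptors, 7 were higher and 13 lower, against 39.6% and 27.5% of the array, with a median log2 fold change of −0.60. The largest increases were those of *Shc2* (1.23) and *Dok6* (1.19), both adaptors that bind the activated kinases, yet both stood within the range of the olfactory and vomeronasal receptor genes in either group (percentiles 68.2 and 56.0 in NCPs and 76.8 and 72.2 in total embryo) and at 0.02 and −0.12 after level adjustment. The largest decreases were those of *Pik3r1* (−2.96), the regulatory subunit of PI3 kinase, and *Nedd4* (−2.75), a ubiquitin ligase. After level adjustment the median was 0.02, and 4 of the 26 genes were higher and 2 lower. The shares over all probe sets were 10.3% and 8.29%, and 1642 of 19937 genes were higher and 1733 lower. The 4 were *Bex3* (1.83), *Shc1* (0.97), *Frs3* (0.89) and *Src* (0.62), and the 2 were *Pik3r1* (−0.96) and *Gab2* (−0.94), of which all but *Pik3r1* were named after their values were seen.

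Of 13 genes known to be induced by RET or Trk signalling, 2 were higher, 4 lower and 7 did not pass, against 39.6% higher and 27.5% lower on the array, with a median of −0.05. *Fos*, an immediate early gene, averaged 6.84 ± 0.48 in NCPs and 5.66 ± 0.14 in total embryo, for a log2 fold change of 1.18, and *Etv4*, an ETS factor downstream of RET in the ureteric bud, changed by 1.05. *Cxcr4*, a chemokine receptor, changed by −1.83 and *Etv5*, a close relative of *Etv4*, by −1.42. After level adjustment *Fos* alone of the 13 passed, at 0.71 (limma adjusted *p* = 0.026), where 10.3% of the array was called higher. *Etv4* was then at 0.39, *Cxcr4* at −0.29 and *Etv5* at −0.03. *Egr1* and *Arc* of the same list passed on neither scale, at 0.18 and −0.41 after adjustment. Only the NCPs are described as dissociated and sorted, and the part of that step in *Fos* was not tested.

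**Figure D5:**
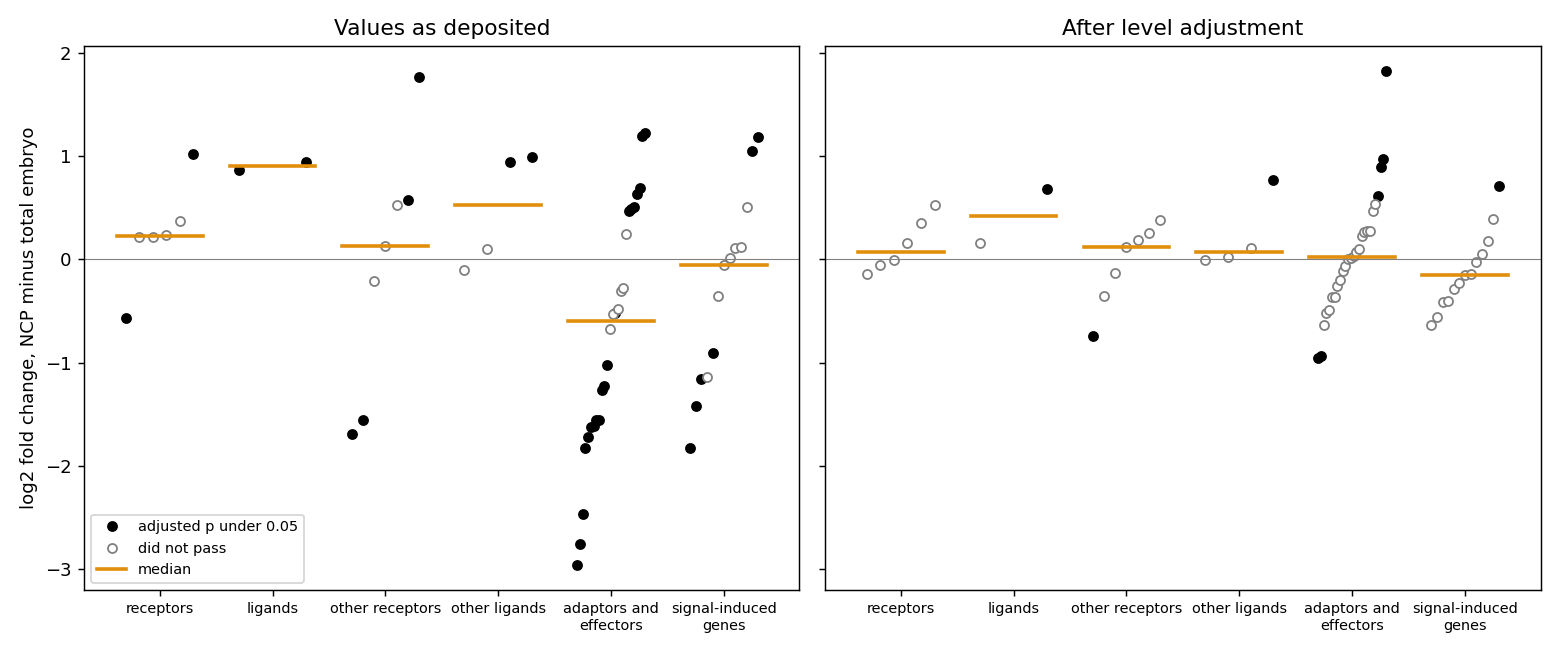
Log2 fold change of NCPs over total embryo (vertical axis) of every measured gene in each list, with filled points for an adjusted p under 0.05, open points for the others and an orange line at the list median, for deposited values (left) and after level adjustment (right). The median of the 26 adaptors and effectors is −0.60 on the left and 0.02 on the right, and 1 of the 2 ligands and none of the 6 receptors is filled on the right.

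Markers of tissues that also make these ligands and receptors were measured on the same arrays. Kidney progenitors and ureteric bud form a tissue in which *Gdnf*, *Ret* and *Gfra1* are abundant. Of their 10 markers 4 were higher and 0 lower, against array-wide shares of 39.6% and 27.5%. The 4 were *Six2* (1.43), *Lhx1* (1.18), *Wnt11* (0.82) and *Pax8* (0.66), and their list averaged 6.42 to 6.74 on NCP arrays and 6.09 to 6.21 on total embryo arrays. After level adjustment 2 of the 10 were higher, *Hoxb7* (0.84) and *Wt1* (0.51), and 0 lower, against 10.3% and 8.29% of the array. Of 15 smooth muscle and mesenchyme markers, cells that supply GDNF to growing nerves, none was higher and 14 were lower (39.6% and 27.5% of the array). Their list mean was 6.19 to 6.58 on NCP arrays and 8.47 to 8.95 on total embryo arrays. After level adjustment *Twist1* (1.05) was higher and 6 were lower, against 10.3% and 8.29% of the array. Sensory neurons hold *Ntrk2*, *Ntrk3*, *Gfra3* and *Bdnf*, and of 8 of their markers 6 were higher and 1 lower (39.6% and 27.5% of the array), and 1 was higher after level adjustment, *Neurog1* (0.97), near the share of 10.3% for the array. Of 11 autonomic neuron markers, 7 were higher and 1 lower, *Uchl1* (−1.23), against 39.6% and 27.5% of the array. After level adjustment 4 were higher, *Insm1* (1.27), *Isl1* (1.13), *Prph* (0.77) and *Gata3* (0.54), and 0 lower (10.3% and 8.29% of the array). The other autonomic markers did not pass on that scale, among them *Dbh* (0.29), *Th* (−0.09) and *Uchl1* (−0.15). These markers were named after their values were seen. The part of these cells in the member values was not tested.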

How the data were processed

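The authors scanned mouse Gene 1.0 ST arrays and deposited log2 values, summarized with RMA (Affymetrix Expression Console 1.1). The set of arrays that was normalized jointly is not given in the sources used here. The labels name GeneChip One-Cycle labelling, whereas the methods name NuGEN WT-PICO amplification.

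Of 34760 probe sets, 6568 controls were left out and 28192 tested with limma 3.58.1 (R 4.3.3) on 3 NCP and 7 total embryo arrays, with Benjamini-Hochberg adjustment over all of them and a threshold of 0.05. Of these, 21640 carry 1 gene symbol, 1321 several and 5231 none, and 19918 genes were matched to RefSeq symbols (GRCm38.p6). Shares of the array are over all 28192 probe sets, whereas members and lists hold 1 probe set per gene. Among the 19937 genes, 6932 were called higher and 6188 lower as deposited. After level adjustment 1642 were higher and 1733 lower. Level adjustment subtracted a lowess trend (span 0.3) from each array. Fits were tested on simulated data with independent noise on each array, whereas real arrays of the same sample code had a residual correlation of 0.68. That simulation therefore does not bear on *p*-values from repeated sample codes. Members, lists and settings were chosen with earlier results of these data known. Genes named outside the members are, by rule, up to 2 increases and 2 decreases past the test per pathway list, *Sox10*, leading marker genes and the genes closest by correlation. *Nrtn*, *Pspn*, *Ngfr*, *Bex3*, *Shc1*, *Frs3*, *Src*, *Gab2*, *Egr1*, *Arc* and part of the marker genes were named outside that rule. Other marker lists covered epithelium and urothelium (0 of 13 higher, 7 lower), endothelium (0 of 10 higher, 7 lower), immune cells (0 of 10 higher, 9 lower), erythroid cells (1 of 5 higher, 1 lower) and central nervous system progenitors (3 of 7 higher, 0 lower). The array-wide shares were 39.6% higher and 27.5% lower. After level adjustment 5, 1, 2, 0 and 1 were lower, in the same order, against 8.29% of the array. On that scale 0, 0, 0, 0 and 1 were higher, against 10.3%. Alternatives changed the control arrays, blocks, scaling, prior, weights, filter and thresholds, and left out each array. The number of arrays limits the precision.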

Additional observations from a re-analysis of the deposited data

Results flagged for a closer look

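*Gfra1* in total embryo had 1 array apart from the others. Total embryo replicate 3 was at 6.94, and the other 6 arrays lay between 6.24 and 6.53, so that its gap to the nearest array was 0.578 of the range of the group, above Dixon's 95% critical value of 0.568 for 7 samples. *Ret* was also highest on this array, at 6.39 against 5.70 to 6.06 on the others. Without it, the log2 fold change of NCPs over total embryo was 0.30 for *Gfra1* and 0.31 for *Ret*, and neither passed limma's test (adjusted *p* = 0.281 and 0.237). Chance flags about 1 in 20 groups, and 8 total embryo groups were examined.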

How the results depend on the processing

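No paired analysis was possible because the labels pair no NCP array with a total embryo array. Leaving out 1 array at a time gave 10710 to 11119 probe sets higher and 7371 to 7930 lower, 1 to 2 receptors higher, 0 to 1 receptors lower, and 2 ligands higher each time. *Ret* ranged from −0.059 to 0.42 and *Gfra1* from −0.13 to 0.41, both lowest without NCP replicate 3.

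No receptor was called lower (0, against 1) with control arrays of either title series, sample code as a block, title series as a block, array weights, repeated quantile normalization (6370 probe sets higher), or at an adjusted *p* of 0.01. With the single control array of the NCP title date, 364 probe sets were higher and 691 lower, and no member passed (0 receptors higher or lower and 0 ligands higher). With arrays averaged per sample code, 5761 were higher and 4183 lower, 0 receptors passed, and 1 ligand, *Bdnf*, was higher. With cyclic loess, 4777 were higher and 4506 lower, 0 receptors were lower and 1 ligand, *Gdnf*, was higher, while *Gfra2* turned to 0.17, *Ntrk2* to −0.16, *Ntrk3* to −0.048, *Gfra4* to −0.13 and *Dok6* to −0.11. The filter on dim probe sets left 4148 higher. Requiring a log2 fold change of 1 left 7219 higher, 0 receptors lower and 0 ligands higher.

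With arrays centred on the olfactory and vomeronasal receptor genes, 1339 were higher and 21976 lower, among them 6 receptors and 2 ligands, with 0 receptors and 0 ligands higher. *Ret* was then at −1.45, *Gfra1* at −1.48, *Gfra3* at −0.67, *Ntrk2* at −1.48, *Ntrk3* at −1.32, *Gdnf* at −0.83, *Bdnf* at −0.75, *Ntf5* at −0.70, *Artn* at −0.75, *Gfra4* at −1.12, *Shc2* at −0.47, *Dok6* at −0.50, *Fos* at −0.51, *Etv4* at −0.64 and *Sox10* at −0.69.

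Level adjustment left 2903 higher and 2336 lower, with 0 receptors either way and 1 ligand higher, and turned *Ret* to −0.0073, *Gfra2* to 0.16, *Ntrk2* to −0.14, *Ntrk3* to −0.054, *Gfra4* to −0.13 and *Dok6* to −0.12. Level adjustment without NCP replicate 2, added after the data were seen, gave 3856 higher and 3459 lower, 0 receptors either way and 1 ligand higher, with *Gfra2* at 0.0080, *Ntrk2* at −0.23, *Ntrk3* at −0.27, *Dok6* at −0.28 and *Cxcr4* at 0.11. The causes were not tested.

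*Gdnf* passed in 23 of 27 alternatives, *Gfra3* in 22, *Bdnf* in 21 and *Gfra2* in 13, in the same direction. The 3 NCP arrays, the single control array sharing their date and the 2 total embryo sample codes limit every comparison.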
